A study of Mus musculus with 6 samples.

Results

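The respiratory chain genes described here are the nuclear genes of mitochondrial energy conversion that the array names Nduf, Uqcr, Atp5, Sdha to Sdhd and Cox followed by a number. They were picked by name, with no measured value in the rule, although the set itself was proposed with earlier results of these data known. The array carries 156 such probes of 103 genes among its 27376 gene names. By role these are 36 genes of complex I, 4 of complex II, 8 of complex III, 19 of complex IV, 16 of complex V, 19 assembly factors and 1 pseudogene, Atp5c1-ps. Ndufa4 was counted with complex IV, of which its protein is a subunit. Of the 103 genes, 101 were measured well enough to be tested.

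Testis total RNA was compared between 3 Prss55-/- and 3 wt male mice on 6 single-dye whole mouse genome arrays, 1 array per mouse. All mice were 6 to 8 weeks old and on a mixed 129Sv/C57BL/6 background, and the knockout had been made by homologous recombination and bred by crossing heterozygotes. Prss55 encodes a testis serine protease held on the membrane by a GPI anchor. The whole testis was used, so that a gene's signal sums germ cells and somatic cells, and a smaller number of cells of a type cannot be told apart from less RNA per cell.

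Complexes I, III and IV pass electrons from NADH to oxygen and pump protons across the inner mitochondrial membrane, complex II feeds electrons in from succinate, and complex V uses the proton gradient to make ATP. Most subunits are the same in every tissue. Complex IV is an exception, since several of its small subunits exist as isoforms, and Cox6b2, Cox7b2 and Cox8c are the forms known from male germ cells, beside the somatic forms Cox6b1, Cox7b and Cox8a. Sperm carry their mitochondria in the midpiece of the tail.

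Each of these 6 genes was read by the array probe shown here by its middle bases, 16 to 45 of 60, printed so that the targets behind the isoform comparison can be told apart. All bases are in lower case because no part is singled out.
Cox6b2: aaaatatgaccttgcacttgagcgctgctc
Cox6b1: tgaagacatcaagactaaaatcaagaacta
Cox7b2: tgaaaacagacctgttgcttcaatcaatag
Cox7b: cagctggtacaataatcaaggaattgttta
Cox8c: cgaacataatctgcttaagtgttaaataaa
Cox8a: ccagtcacctcttctgcaatcatgacctct
The longest run of bases shared by the full probes of a testis isoform and its somatic partner was 6 for Cox6b2 and Cox6b1, 7 for Cox7b2 and Cox7b, and 5 for Cox8c and Cox8a, on either strand. With a probe of any other gene, on the same strand, the longest shared run was between 13 and 16 bases. By the array files, which name build mm9, the testis isoform probes lie at chr7:4703488-4703547 on the minus strand for Cox6b2, chr5:71834459-71894699 on the minus strand for Cox7b2 and chr12:104138678-104138736 on the plus strand for Cox8c. The somatic isoform probes lie at chr7:31409575-31411071 on the minus strand for Cox6b1, chrX:103217154-103217213 on the plus strand for Cox7b and chr19:7289727-7289786 on the minus strand for Cox8a. The spans given for Cox7b2 and Cox6b1 are longer than the probes, which the files thus place in pieces.

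Between 69.5% and 72.9% of the spots of an array lay well above background and 0 were saturated. The Prss55-/- mice shared 1 slide, and 2 further slides held the wt mice, so that slide and genotype cannot be told apart. Of the markers of round and elongating spermatids, 8 of 8 each passed the filter on dim signals. So did 6 of 8 muscle and fat markers, so that passing the filter does not by itself identify the tissue. The targeted gene, Prss55, had a normalized log2 signal of 15.08, 14.95 and 14.93 in Prss55-/- mice 1 to 3 and of 15.87, 15.77 and 16.01 in wt mice 1 to 3. The Prss55-/- signal was thus 53.6% of the wt signal (log2 difference -0.90, standard error 0.080, limma adjusted p = 0.010), and the genotypes did not overlap. The call was lost by the methods' t-test (adjusted p = 0.071), and in limma with Prss55-/- replicate 2, Prss55-/- replicate 3 or wt replicate 1 dropped (limma adjusted p = 0.067 to 0.070), and with the replicate block (limma adjusted p = 0.101). Where the Prss55 probe lies relative to the replaced part of the gene was not determined, so this value checks the labels only in direction. The paper itself reported that the knockout lacked Prss55 mRNA by RT-PCR and the protein by Western blotting and immunofluorescence.

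No respiratory chain gene passed the adjusted threshold. Of 101 genes tested, 0 had a limma adjusted p below 0.05 after Benjamini-Hochberg adjustment over all probes, against 1.39% of all 19181 genes, and the lowest adjusted p among them was 0.213. The largest differences were an increase of 1.13-fold for Uqcrb and a level of 0.89 of wt for Atp5e. In this fit, 0 of the 101 genes tested came near a 2-fold change. The log2 difference lay above 0 for 53 genes and below 0 for 48, and its median was 0.003 beside -0.0023 over all genes. In size, the median difference was 0.040 on the log2 scale for the members and 0.096 for all genes. The genes compared here were not matched in signal level.

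The intervals of the differences say how large a change the scatter between mice of a genotype leaves room for. They do not cover a difference between slides, which cannot be told apart from genotype here. The 95% interval of the limma fit lay within 2-fold in both directions for 101 of 101 members and within 1.5-fold for 100 of them, beside 95.4% and 84.8% of all genes. Within 1.2-fold lay the intervals of 93 members, or 92.1%, beside 44.5% of all genes, again not matched in signal level. The member outside 1.5-fold was Cox7c, a small complex IV subunit, with an interval from -0.60 to 0.51.

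**Figure D1:**
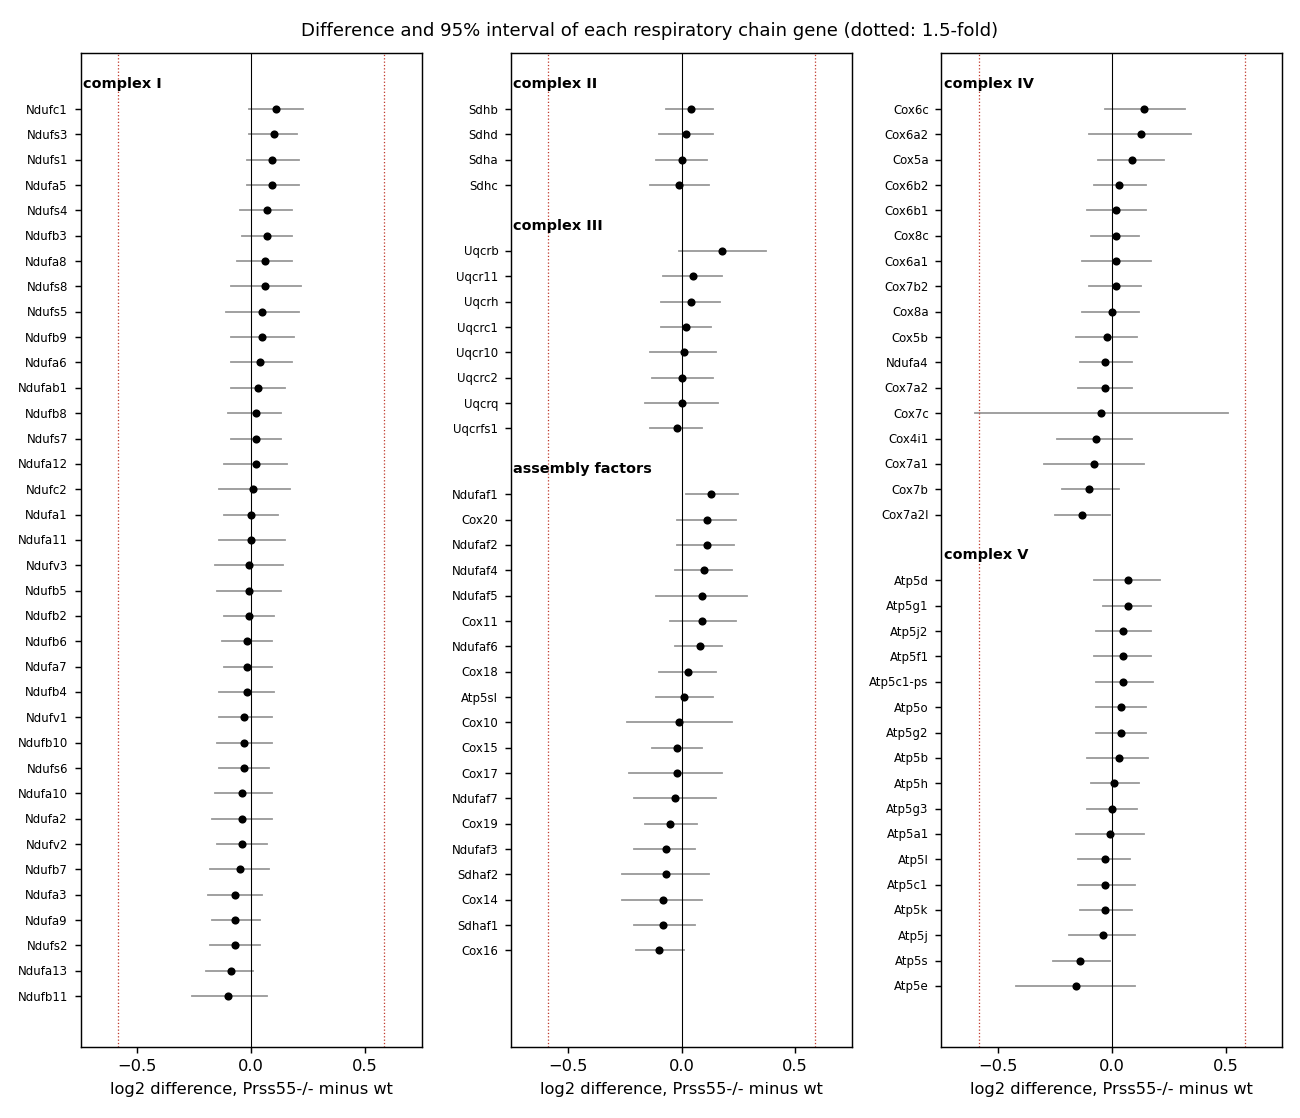
Log2 difference between Prss55-/- and wt testis (points) with its 95% interval from the limma fit (lines, n = 3 mice a genotype) for the 101 genes tested, by complex, with the pseudogene Atp5c1-ps drawn under complex V. Dotted lines mark 1.5-fold in either direction, and the interval of Cox7c alone crosses one.

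The members also varied less between mice than other genes did. The median pooled SD within a genotype was 0.047 for the members and 0.090 for all genes. This bears on counts at an unadjusted p, because the test draws each gene's spread toward that of all genes. At an unadjusted limma p below 0.05, 1 member was higher in Prss55-/- testis and 2 were lower, or 0.99% and 1.98% of the members, beside 9.83% and 10.2% of all genes. Other ways of setting the spread moved this count by more than 1.5 times. With the spread fitted as a trend on signal level, an alternative chosen after seeing the data, 12 members passed, which is 11.9% beside 21.5% of all genes. The methods' t-test, which takes each gene's own spread, passed 14 members, or 13.9%, beside 18.2% of all genes, and after Benjamini-Hochberg adjustment it passed 0. By ranks alone, 15 members had every Prss55-/- value above every wt value and 7 had every one below, or 14.9% and 6.93%, beside 13.4% and 14.0% of all genes. The share of members with separated values was thus near the background on the higher side and below it on the lower side.

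**Figure D2:**
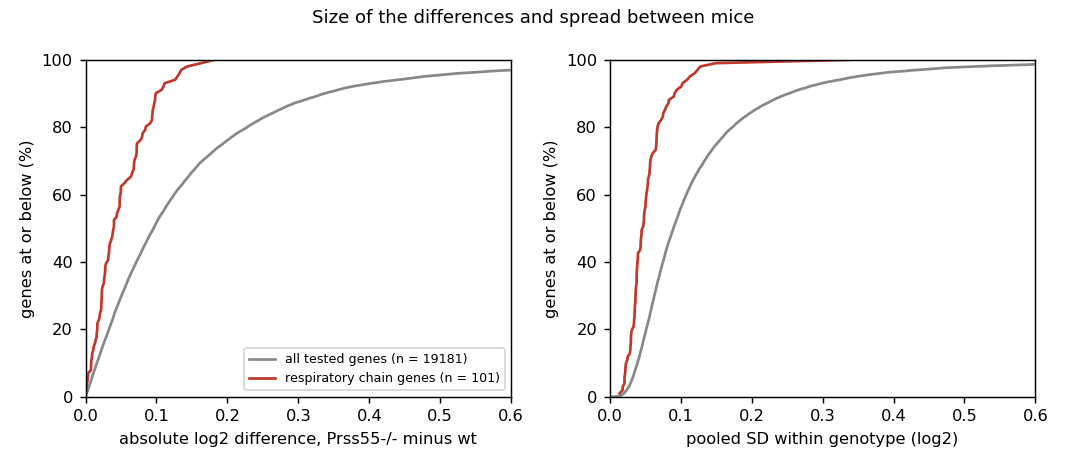
Cumulative share of genes (vertical, percent) by the absolute log2 difference between genotypes (left) and by the pooled SD within a genotype (right), for the 101 respiratory chain genes in red and all 19181 tested genes in grey. Both red curves lie left of the grey ones, with medians of 0.040 against 0.096 for the difference and 0.047 against 0.090 for the SD. The grey genes were not matched to the red ones in signal level.

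The testis isoforms of complex IV did not differ detectably between genotypes. Cox6b2, whose protein faces the space between the membranes, had normalized log2 signals of 16.29, 16.38 and 16.37 in Prss55-/- mice and 16.33, 16.31 and 16.30 in wt mice. The Prss55-/- values lay on both sides of the wt values, and the difference was 0.03 with a 95% interval from -0.08 to 0.15. Cox7b2, a small membrane subunit, had signals of 14.28, 14.37 and 14.32 in Prss55-/- mice and 14.31, 14.29 and 14.32 in wt mice. The genotypes overlapped, with a difference of 0.02 and an interval from -0.10 to 0.13. Cox8c, the testis form of the smallest nuclear subunit, had signals of 16.59, 16.58 and 16.58 in Prss55-/- mice and 16.60, 16.55 and 16.55 in wt mice. Its difference was 0.02 with an interval from -0.09 to 0.12, so that for each of these 3 genes a change of more than about 1.2-fold lies outside the interval.

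None of the somatic partners passed the test, and Cox7b had the largest measured difference of these 6 genes. Cox6b1 had log2 signals of 10.72, 10.61 and 10.59 in Prss55-/- mice and 10.63, 10.60 and 10.63 in wt mice, a difference of 0.02 with overlapping values. Cox8a had signals of 14.14, 14.06 and 14.12 in Prss55-/- mice and 14.11, 14.17 and 14.05 in wt mice, and its difference was below 0.01 in size. Cox7b had 12.09, 11.96 and 12.03 in Prss55-/- mice and 12.12, 12.11 and 12.15 in wt mice. The 3 Prss55-/- values of Cox7b lay below the 3 wt values, but the difference of -0.10 (interval -0.22 to 0.03) did not pass the test.

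Whether a testis isoform changed by another amount than its somatic partner was asked within each array for the 3 pairs. The log2 difference of Cox6b2 less that of Cox6b1 was 0.01 (95% interval -0.19 to 0.21, exact permutation p = 1.0), and that of Cox8c less that of Cox8a was 0.02 (-0.10 to 0.14, exact permutation p = 0.8). For Cox7b2 and Cox7b it was 0.11 (-0.07 to 0.29, exact permutation p = 0.2, adjusted over the 3 pairs 0.6). These tests were two-sided, and 3 mice against 3 cannot give a p below 0.1. None of the pairs had separated genotypes.

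**Figure D3:**
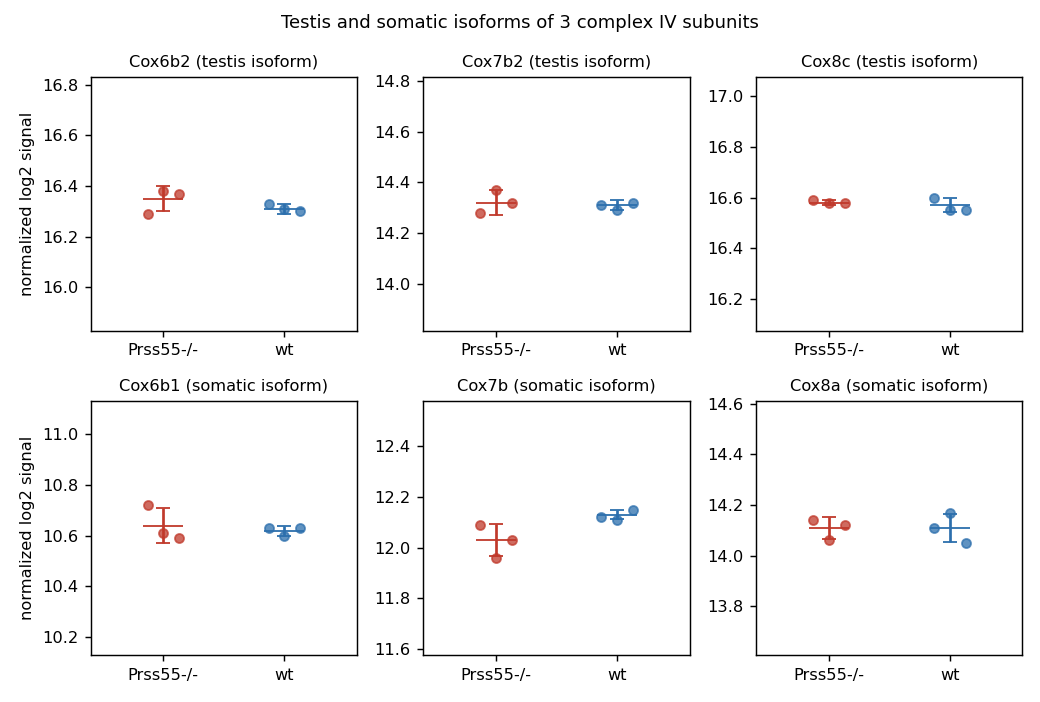
Normalized log2 signal of the testis isoforms (top) and their somatic partners (bottom) in each of 3 Prss55-/- (red) and 3 wt (blue) mice, with the mean and SD. Every panel spans 1 log2 unit, and the genotypes overlap in every panel but that of Cox7b, where wt is higher by 0.10.

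Of the 10 other tissue isoforms tested, 0 passed the adjusted threshold. At an unadjusted limma p below 0.05, 1 of them, Cox7a2l, was lower, where 10.2% of all genes were. The values of Cox7a2l stand with complex IV. Cox4i1, the common form of the subunit that binds regulatory nucleotides, had a log2 difference of -0.07 (interval -0.24 to 0.09), while its lung form Cox4i2 was well above background on 0 Prss55-/- arrays and 1 wt array. The muscle form Cox8b was well above background on 2 arrays of each genotype, so neither Cox4i2 nor Cox8b was tested. Cox6a1 and Cox7a2, the common forms, differed by 0.02 and -0.03, and the heart and muscle forms Cox6a2 and Cox7a1 by 0.13 (-0.10 to 0.35) and -0.08 (-0.30 to 0.14). Ndufa4 differed by -0.03, and no probe on the array is named Ndufa4l2. The genes Atp5g1, Atp5g2 and Atp5g3, which encode the same mature ring subunit of complex V, differed by 0.07, 0.04 and less than 0.01.

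Complex I, the NADH dehydrogenase, had 36 genes tested, with log2 differences from -0.10 for Ndufb11 to 0.11 for Ndufc1 and a median of -0.0043. The smallest unadjusted p values belonged to Ndufs3, a core subunit of the arm in the matrix, and Ndufc1, an accessory membrane subunit. Ndufs3 had log2 signals of 15.12, 15.11 and 15.11 in Prss55-/- mice and 15.04, 14.98 and 15.02 in wt mice. Its Prss55-/- values were all higher, by 0.10 (standard error 0.043, limma adjusted p = 0.285). Ndufc1 had signals of 16.04, 16.08 and 16.09 in Prss55-/- mice and 16.01, 15.92 and 15.94 in wt mice, again separated, with a difference of 0.11 (standard error 0.048) that did not pass. In the opposite direction, Ndufa13, an accessory subunit, had 16.76, 16.77 and 16.76 in Prss55-/- mice and 16.88, 16.83 and 16.87 in wt mice. It was picked after its values were seen, as a separated gene, and its difference of -0.09 (interval -0.20 to 0.01) did not pass either. In all, 6 complex I genes were separated with Prss55-/- higher and 3 with Prss55-/- lower, or 16.7% and 8.33% of the complex beside 13.4% and 14.0% of all genes.

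Complex II, succinate dehydrogenase, has 4 genes, whose log2 differences lay between -0.01 and 0.04. Sdha, the flavoprotein subunit, had log2 signals of 11.81, 11.82 and 11.77 in Prss55-/- mice and 11.83, 11.77 and 11.79 in wt mice, a difference below 0.01 in size. Sdhb, the iron-sulfur subunit, had 13.70, 13.70 and 13.74 in Prss55-/- mice and 13.67, 13.67 and 13.69 in wt mice. The Sdhb difference was 0.04 (interval -0.07 to 0.14), and those of the membrane anchors Sdhc and Sdhd were -0.01 and 0.02. By the brightest probe, all 4 intervals lay within 1.2-fold. The other 2 probes of Sdha differed by -0.05 (interval -0.18 to 0.08) and -0.13 (-0.29 to 0.04).

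Complex III, the cytochrome c reductase, held the largest difference of the set. Uqcrb, the subunit next to the ubiquinone site, had log2 signals of 13.56, 13.57 and 13.57 in Prss55-/- mice and 13.46, 13.22 and 13.48 in wt mice. The groups did not overlap, but 1 wt mouse, replicate 2, was lower than the other two. The difference was 0.18 (standard error 0.079, interval -0.01 to 0.37, limma adjusted p = 0.285), and it became 0.097 without that mouse. Uqcr11, a small subunit, differed by 0.05, and the 8 genes of the complex had a median of 0.0153, with 7 above 0.

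Complex IV, cytochrome c oxidase, had 17 genes tested and a median log2 difference of -0.0032. Cox7a2l, which joins complexes III and IV into supercomplexes, had log2 signals of 13.23, 13.16 and 13.13 in Prss55-/- mice and 13.26, 13.34 and 13.31 in wt mice. Its Prss55-/- values were all lower, by 0.13 on the log2 scale or to 0.91 of wt (standard error 0.050, limma adjusted p = 0.241). Cox6c, a membrane subunit, had 15.17, 15.26 and 15.17 in Prss55-/- mice and 15.16, 14.93 and 15.08 in wt mice, with a difference of 0.14 (interval -0.03 to 0.32). Cox7b was the other complex IV gene separated with Prss55-/- lower, and Cox6c was the 1 separated with Prss55-/- higher. These were 11.8% and 5.88% of the complex, beside 14.0% and 13.4% of all genes.

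Complex V, the ATP synthase, had 16 genes tested and a median log2 difference of 0.0075. Atp5s, the coupling factor B gene, had log2 signals of 11.84, 11.74 and 11.73 in Prss55-/- mice and 11.91, 11.93 and 11.88 in wt mice, so that all Prss55-/- values were lower. The difference was -0.14 (standard error 0.052, limma adjusted p = 0.237), and a second probe of the gene gave -0.09. Atp5g1 had 13.68, 13.71 and 13.71 in Prss55-/- mice and 13.60, 13.65 and 13.64 in wt mice, separated by a small step. Atp5e, the epsilon subunit of the catalytic head, had the lowest difference at -0.16, with an interval from -0.42 to 0.10 because its values spread over 15.93 to 16.30.

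The 19 assembly factors help build the complexes and are not part of them. Ndufaf1, which acts on a membrane intermediate of complex I, had log2 signals of 11.74, 11.75 and 11.67 in Prss55-/- mice and 11.55, 11.61 and 11.60 in wt mice. It was the member with the smallest unadjusted p, with all Prss55-/- values higher by 0.13 (standard error 0.047, limma adjusted p = 0.213). Cox16, needed for complex IV, had 13.92, 13.94 and 13.95 in Prss55-/- mice and 14.05, 14.03 and 14.02 in wt mice, a separated difference of -0.10 that did not pass. The group had 5 separated genes with Prss55-/- higher (Ndufaf1, Ndufaf2, Ndufaf4, Ndufaf6 and Cox20) and 1 with Prss55-/- lower, or 26.3% and 5.26% beside 13.4% and 14.0% of all genes. Its median difference was -0.0078.

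Array by array, the complexes stayed level. The median deviation of the 101 genes from their own means was 0.017, 0.003 and 0.002 on the Prss55-/- arrays and 0.015, -0.004 and -0.027 on the wt arrays. The assembly factors had array medians of 0.007, 0.032 and 0.017 in Prss55-/- mice and of -0.026, -0.004 and -0.021 in wt mice, which do not overlap but lie within 0.1 of each other. Their median of differences had the opposite sign, at -0.0078, so no direction is given for the group.

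**Figure D4:**
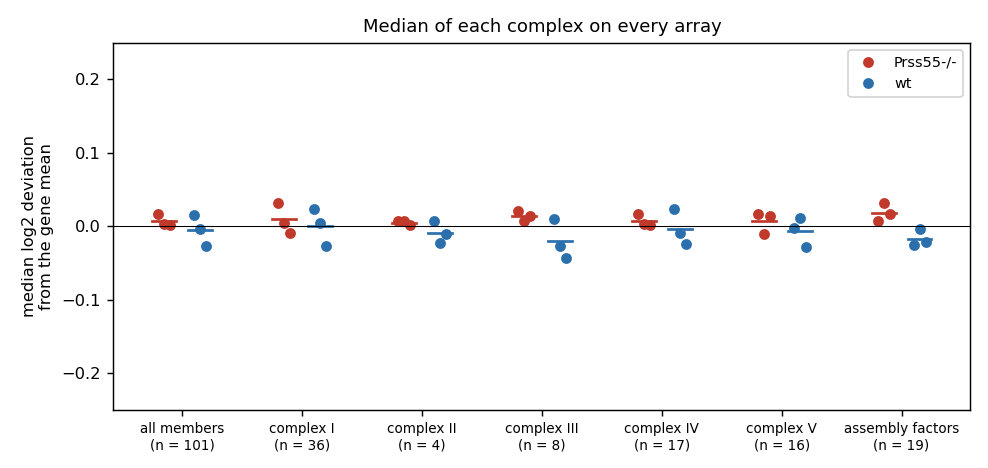
Median log2 deviation of the genes of each complex from their own 6-array means, for each Prss55-/- (red) and wt (blue) array, with the mean of each genotype as a line. All medians lie between -0.043 and 0.032 on the log2 scale.

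Where a gene had more than 1 probe, the probes did not always agree. Of 32 members with over 1 tested probe, the probes spanned a median of 0.07 in log2 difference, and 17 had probes of both signs. Ndufb8 spanned most, at 0.36. Its bright probe had log2 signals of 16.31, 16.29 and 16.21 in Prss55-/- mice and 16.25, 16.27 and 16.24 in wt mice, a difference of 0.02. A dim probe of the same gene had 5.72, 5.53 and 5.64 in Prss55-/- mice and 6.03, 5.82 and 6.07 in wt mice. The dim probe was separated and differed by -0.35 (standard error 0.087, limma adjusted p = 0.118).

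Cox19, a factor of copper delivery to complex IV, had a pair of bright probes with differences of -0.05 and -0.02 and a dim one with 0.23. The dim probe read 7.24, 7.20 and 7.20 in Prss55-/- mice and 6.91, 7.03 and 7.02 in wt mice, and its limma adjusted p of 0.099 was the lowest of the 148 member probes. Ndufab1, the mitochondrial acyl carrier protein, had 4 tested probes, of which the brightest differed by 0.03 and the dimmest by -0.28 (limma adjusted p = 0.228). Counting every probe, 3 probes were higher and 5 lower at an unadjusted limma p below 0.05, or 5.41% of the member probes beside 19.1% of all probes.

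**Figure D5:**
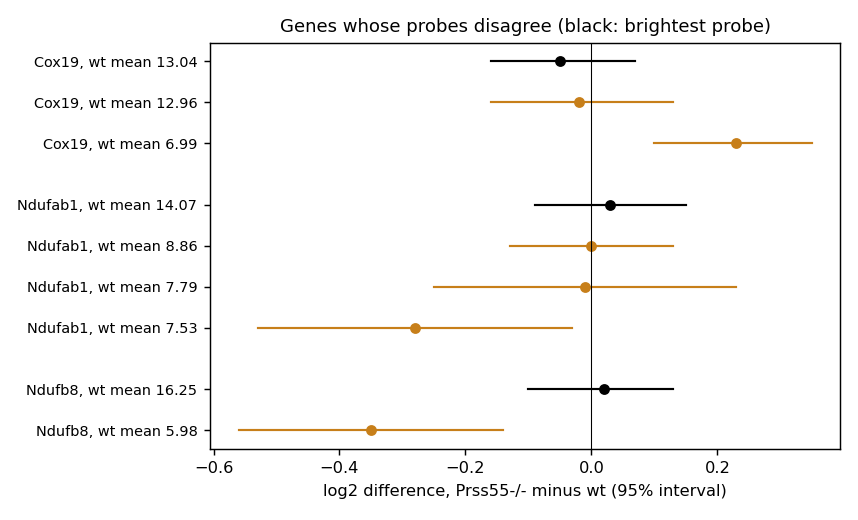
Log2 difference with its 95% interval for every tested probe of Cox19, Ndufab1 and Ndufb8, labelled by the mean log2 signal in wt mice, with the brightest probe of each gene in black. The intervals of the black probes span 0, and 1 dimmer probe of each gene lies apart, at 0.23, -0.28 and -0.35.

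Partners of the chain outside the naming rule were read from lists. The testis forms of cytochrome c (Cyct), the ADP/ATP carrier (Slc25a31) and the pyruvate dehydrogenase subunit (Pdha2) differed by 0.06, 0.06 and 0.02. Of the somatic forms, Cycs, Slc25a5 and Pdha1 differed by -0.02, -0.01 and -0.02. Slc25a4, the carrier form of heart and muscle, had log2 signals of 13.88, 13.83 and 13.88 in Prss55-/- mice and 14.03, 14.08 and 14.01 in wt mice. It was separated, with a difference of -0.18 (standard error 0.046, limma adjusted p = 0.125). The 4 transcripts of mitochondrial DNA on the array, ND4, CYTB, COX2 and ATP6 as the files spell them, differed by -0.07 to 0.06.

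Of 40 further genes of electron transfer and complex assembly, 33 were on the array and tested, and 0 passed the adjusted threshold. At an unadjusted limma p below 0.05, 4 of these 33 were higher in Prss55-/- testis and 2 were lower, where 9.83% and 10.2% of all genes were. The higher ones were Cyc1, the cytochrome c1 subunit of complex III (0.17), Etfb of the electron transfer flavoprotein (0.26), Nubpl, which supplies iron-sulfur clusters to complex I (0.26), and the inner membrane insertase Oxa1l (0.14). The lower ones were Etfdh, which passes electrons from that flavoprotein to ubiquinone (-0.21), and the copper chaperone Sco1 (-0.15). Etfb read 14.56, 14.51 and 14.61 in Prss55-/- mice and 14.25, 14.42 and 14.22 in wt mice (limma adjusted p = 0.129), and Etfdh 11.67, 11.63 and 11.69 against 11.90, 11.91 and 11.81 (limma adjusted p = 0.107). The protein products of Etfb and Etfdh act in succession, and their transcripts differed in opposite directions, without passing the adjusted threshold. Etfa, of the same flavoprotein as Etfb, differed by -0.06 (limma adjusted p = 0.495), in the direction of Etfdh and not of Etfb.

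Of 9 regulators of mitochondrial gene expression, 0 passed the limma adjusted threshold, and at an unadjusted p below 0.05 1 was higher and 1 lower, beside 9.83% and 10.2% of all genes. The coactivator gene Ppargc1b read 9.60, 9.38 and 9.49 in Prss55-/- mice and 9.09, 9.19 and 9.24 in wt mice, a difference of 0.31 (limma adjusted p = 0.111). Its paralogue Ppargc1a read 8.70, 9.16 and 9.23 against 9.31, 9.45 and 9.12, a difference of -0.26 with overlapping values (limma adjusted p = 0.419). The nuclear receptor gene Esrra read 11.95, 11.99 and 11.88 against 12.15, 12.14 and 12.06, a difference of -0.18 (limma adjusted p = 0.157). Nrf1, Gabpa and Tfam, which act on respiratory chain genes or on mitochondrial DNA, differed by 0.07, -0.01 and -0.14.

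Markers of the cell types of the testis give the setting of these values. Of 8 round spermatid markers, 5 were higher at an unadjusted limma p below 0.05, where 9.83% of all genes were, with a median log2 difference of 0.174 and a mean level from 14.76 to 14.88 on the Prss55-/- arrays and from 14.63 to 14.72 on the wt arrays. Of 7 Leydig cell markers tested, 3 were lower, where 10.2% of all genes were, with a median of -0.555 and mean levels from 10.90 to 11.56 on the Prss55-/- arrays and from 11.39 to 11.71 on the wt arrays. Hsd3b6 of that list differed by 0.37, and Prss55-/- mouse 1 lay among or above the wt mice for Star (12.68 beside 12.05, 11.42 and 12.34) and Cyp11a1 (12.75 beside 12.89, 12.59 and 12.87). Of 7 macrophage markers 2 were lower and of 7 peritubular and vascular markers 1 was, with medians of -0.124 and -0.086 and every difference below 0. The medians of the other lists were 0.061 for spermatogonia, 0.044 for spermatocytes, -0.024 for elongating spermatids, -0.017 for Sertoli cells, 0.003 for blood and -0.107 for muscle and fat, and only 2 epididymis markers passed the filter on dim signals (median 0.149). No marker gene of the 11 lists passed the adjusted threshold. The part of cell composition in the respiratory chain values was not tested.

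The members lay on 19 chromosomes in the array files, with 11 genes on chromosome 7 as the most on any and 3 on the X chromosome. A table of RefSeq promoters (GRCm38.p6) matched 85 of the 102 genes other than the pseudogene, and the 250 bases before the start were read. The observed over expected ratio of CpG was 0.79 at the median of the members and 0.38 over 27025 genes. GCGCATGC, the core of the NRF1 motif, was found on either strand in 10.6% of members and 2.56% of all genes. CCGGAAGT, the GABPA motif, was found in 5.88% and 3.23%, TGACGTCA, the CREB motif, in 4.71% and 1.77%, and TATAAA in 8.24% and 14.3%. AAGATGGC, the core of the YY1 motif, was in 3.53% and 1.83%, and TCAAGGTCA, the ESRRA motif, in 1.18% and 0.422%. The shares of the 85 members rest on few genes, 9 for NRF1, 5 for GABPA, 4 for CREB, 7 for TATAAA, 3 for YY1 and 1 for ESRRA. These are descriptions of letters in a window, and the members' windows also had a higher median GC content, 57.6% beside 52.4%. Among the isoform pairs, Cox7b2 alone held one of these motifs, TATAAA, while Cox8c was not matched in the promoter table.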

How the data were processed

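Total RNA from the testes of 3 Prss55-/- and 3 wt mice was labelled with 1 dye and hybridized to 1 array per mouse. The authors deposited the scanner output (Agilent Feature Extraction 10.7 by their processing notes), whose processed signal is a linear intensity corrected for background within the array. A deposited matrix holds log2 values that their methods describe as quantile-normalized.

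Here control spots and outlier spots were left out, signals below 1 were set to 1, and log2 intensities were quantile-normalized and averaged per probe. Of all probes, 28606 were well above background in every mouse of at least 1 genotype, and these were tested with limma 3.58.1 in R 4.3.3 (two-sided, Benjamini-Hochberg over all of them, 2 missing values), after a test on simulated data. The brightest tested probe stood for a gene. An annotation of GRCm38.p6 held 100 of the 103 symbols and 3 as synonyms. Named genes were Prss55, the tissue isoforms, Sdha to Sdhd, the 2 genes of smallest p in each complex and genes whose probes disagreed, and any other is named as a separated or extreme value or from a list. Members and lists were chosen with earlier results of these data known. The labels number the mice and give no litter or batch, and precision is limited by how few arrays there are. The alternatives were scaling, background, the deposited matrix, filters, blocks, the methods' t-test, the probe per gene and each array left out. The block by slide cannot take a slide difference out of the genotype difference, because no slide held both genotypes.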

Additional observations from a re-analysis of the deposited data

How the results depend on the processing

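The count of respiratory chain genes past the adjusted threshold was 0 under each of the 15 alternative fits and when any probe of a gene could pass, and their lowest adjusted p ranged from 0.095 (the methods' t-test) to 0.446. The largest absolute log2 difference of a member was 0.18 in the main fit. It was 0.82 with no filter on dim probes, 0.66 without wt replicate 1 and 0.48 without Prss55-/- replicate 2. In the other alternative fits it was at most 0.26. Leaving out the filter or an array lets other probes be tested. The count at an unadjusted p below 0.05 (3 genes, 1 higher and 2 lower) became 5 (4 and 1) with 75th percentile scaling, 5 with no filter on dim probes (2 higher), 2 (1 and 1) with normexp background, 8 (3 and 5) with any tested probe of the gene, 14 (8 and 6) with the methods' t-test and 12 (8 and 4) with the variance trend, which was chosen after seeing the data. With 1 array left out it ranged from 0 to 4 (0 to 2 higher, 0 to 3 lower), falling to 0 when Prss55-/- replicate 2 was dropped and to 1 when either Prss55-/- replicate 3 or wt replicate 2 was. With the replicate block it was 0 (0 higher, 0 lower). The labels do not say whether the replicate numbers pair the mice, while a figure legend of the paper speaks of 3 pairs of mice. Same-numbered arrays had deviations correlated at -0.054, -0.023 and -0.112, which with so few mice cannot decide whether they were paired.

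The median log2 difference moved by more than its spread between arrays with 75th percentile scaling for all members (0.022), complex III (0.052), complex V (0.028) and assembly factors (0.029), where the median of all genes was 0.017. With normexp it moved for complex II (-0.020) and assembly factors (0.012), and over all probes for complex II (-0.005). With 1 array left out the medians ranged from -0.005 to 0.018 for complex II, 0.001 to 0.051 for complex III, -0.029 to 0.008 for complex IV and -0.014 to 0.014 for assembly factors. The Prss55 difference kept its direction, with an adjusted p of 0.101 under the replicate block (-0.90), 0.071 by the methods' t-test (-0.90), 0.068 and 0.070 with Prss55-/- replicate 2 or 3 dropped and 0.067 with wt replicate 1 dropped, its differences ranging from -0.956 to -0.837 over the 6 arrays left out.

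The cause of these moves was not tested. The sign of 13 of the 31 named genes turned in at least 1 alternative, each time at a size of at most 0.041. With normexp, Cox6b2 (-0.001), Cox8c (-0.001), Cox8a (0.014), Cox4i1 (0.041), Cox6a1 (-0.003), Atp5g3 (-0.022), Sdhd (-0.013) and Ndufb8 (-0.022) turned, and so did the pair differences of Cox6b2 and Cox6b1 (-0.015) and of Cox8c and Cox8a (-0.015). With 75th percentile scaling Cox7a2 (0.009) and Sdha (0.017) turned, and with the deposited matrix Atp5g3 (-0.004). With 1 array left out, the ranges that crossed 0 were -0.010 to 0.039 for Cox7b2, -0.017 to 0.048 for Cox6b1, -0.031 to 0.025 for Cox8a, -0.029 to 0.050 for Cox6a1, -0.056 to 0.002 for Cox7a2, -0.013 to 0.019 for Atp5g3, -0.014 to 0.016 for Sdha, -0.045 to 0.017 for Sdhc, -0.003 to 0.043 for Sdhd, -0.003 to 0.047 for Ndufb8, -0.027 to 0.079 for the pair Cox6b2 and Cox6b1 and -0.017 to 0.039 for the pair Cox8c and Cox8a. Without crossing 0, it ranged from 0.034 to 0.192 for Cox6a2, -0.134 to -0.003 for Cox7a1, -0.120 to -0.009 for Cox4i1, 0.080 to 0.197 for Cox6c, 0.019 to 0.078 for Uqcr11 and 0.097 to 0.226 for Uqcrb, all uncalled.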

Other observations

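Cox7c read 10.91, 10.87 and 10.59 in Prss55-/- mice and 10.66, 10.51 and 11.35 in wt mice, so that wt replicate 3 was the highest of all, and its pooled SD of 0.34 on the log2 scale was the largest among the members. Atp5e followed with a pooled SD of 0.15. One of 4 tested probes of Sdhaf2, an assembly factor of complex II, read 8.32, 8.87 and 8.40 in Prss55-/- mice and 9.01, 9.0 and 8.46 in wt mice. The brightest probe of Sdhaf2 read 11.79, 11.87 and 11.79 against 12.02, 11.89 and 11.75.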
